A study of Mus musculus with 6 samples.

Results

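Neutrophils carry ready-made antimicrobial proteins in granules, and the genes of these proteins were followed in the livers of mice with long-standing hyperlipidemia. The set held 10 genes, chosen by name with earlier results of these data known. Its primary granule genes were Mpo, Elane, Prtn3 and Ctsg, and its secondary granule genes Camp, Ltf and Ngp. The lysozyme genes Lyz1 and Lyz2 and the chitinase-like gene Chil3 completed it. On the oligonucleotide array 9 of the 10 had a feature, among 16887 genes named there. On the cDNA array 7 had a feature, among 6734 named genes, and 4 of those 7 carried a value on all 3 arrays. No member had more than 1 feature on an array type, and Lyz1 had none on either.

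Female C57BL/6 mice, 7 weeks old at the start and fed chow with 4.4% fat, were injected intraperitoneally with poloxamer P-407 at 0.5 g/kg, once every 3 days, until the livers were collected at day 96. P-407 is a surfactant copolymer that blocks lipoprotein lipase and so raises blood lipids. The 12 treated mice contributed to 3 RNA pools, and 4 mice of the same strain, sex, age and diet, injected with saline, to 1 control pool. Each treated pool in Cy5 was hybridised with that same control pool in Cy3, once on an oligonucleotide array (0.5 ug RNA, linear amplification) and once on a cDNA array (10 ug RNA, direct labelling).

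Primary granules form first, in promyelocytes of the bone marrow, and hold myeloperoxidase and the serine proteases that digest engulfed microbes. Secondary granules form later and hold cathelicidin, lactoferrin and neutrophilic granule protein. Because the transcripts are made mostly while the granules are being built, circulating neutrophils are known to hold little RNA for the primary granule proteins. Lysozyme M, the product of Lyz2, cleaves bacterial cell walls and is made by macrophages as well as neutrophils, and Chil3, also called Ym1, is made by both too. In the myeloid lineage, transcription factors of the C/EBP family and the ETS factor PU.1 are known activators of granule genes.

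The promoter windows of 6 members are printed because they show the arrangement of the letters of these factors in both granule classes and in both lysozyme copies. They are RefSeq sequences of build GRCm38.p6, matched by symbol for all 10 members, and each line gives the 250 bases before the annotated start, 5′ to 3′ on the gene's strand. Capitals mark matches on either strand to the C/EBP letters TTNNGNAA or the PU.1 letters GAGGAA, and no base of the members' windows lay in a match to both.
Elane (chr10:79886062-79886311, plus strand): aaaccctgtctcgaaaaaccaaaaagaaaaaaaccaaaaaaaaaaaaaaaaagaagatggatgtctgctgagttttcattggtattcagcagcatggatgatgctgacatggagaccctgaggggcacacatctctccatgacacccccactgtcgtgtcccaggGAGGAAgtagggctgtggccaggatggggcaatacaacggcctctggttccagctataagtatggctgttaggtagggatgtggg
Prtn3 (chr10:79879417-79879666, plus strand): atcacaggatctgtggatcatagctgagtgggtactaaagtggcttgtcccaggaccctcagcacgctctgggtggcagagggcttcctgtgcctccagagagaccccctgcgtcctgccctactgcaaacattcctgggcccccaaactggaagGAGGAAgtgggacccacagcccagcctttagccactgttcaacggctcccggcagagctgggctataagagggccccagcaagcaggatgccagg
Ngp (chr9:110419558-110419807, plus strand): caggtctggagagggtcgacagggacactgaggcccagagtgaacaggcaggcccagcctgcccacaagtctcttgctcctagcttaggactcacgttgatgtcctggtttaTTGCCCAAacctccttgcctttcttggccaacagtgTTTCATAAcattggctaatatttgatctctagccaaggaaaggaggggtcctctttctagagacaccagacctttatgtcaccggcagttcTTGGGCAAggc
Camp (chr9:109849457-109849706, minus strand): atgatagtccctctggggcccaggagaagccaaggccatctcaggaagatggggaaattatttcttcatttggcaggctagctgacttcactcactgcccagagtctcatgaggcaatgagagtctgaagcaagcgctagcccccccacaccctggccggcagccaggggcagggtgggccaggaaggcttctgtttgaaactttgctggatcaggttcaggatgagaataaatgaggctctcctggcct
Lyz1 (chr10:117292869-117293118, minus strand): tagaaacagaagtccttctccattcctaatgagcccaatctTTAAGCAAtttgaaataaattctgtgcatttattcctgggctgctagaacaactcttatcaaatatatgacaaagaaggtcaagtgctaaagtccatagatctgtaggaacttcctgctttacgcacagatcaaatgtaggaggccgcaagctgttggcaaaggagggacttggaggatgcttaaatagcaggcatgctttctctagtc
Lyz2 (chr10:117282273-117282522, minus strand): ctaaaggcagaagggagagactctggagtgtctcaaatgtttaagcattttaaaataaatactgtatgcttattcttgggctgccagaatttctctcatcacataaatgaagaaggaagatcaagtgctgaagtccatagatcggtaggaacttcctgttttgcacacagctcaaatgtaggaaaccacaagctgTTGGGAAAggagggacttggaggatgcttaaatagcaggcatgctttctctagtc

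All 4 primary granule promoters held GAGGAA and none held TTNNGNAA within the 300-base window, which runs to 50 bases after the start. In Elane the match began 85 bases before the start and in Prtn3, its direct neighbour on chromosome 10, 95 bases before it. Mpo had a pair of matches, at 247 and 224 bases, and Ctsg had 1, at 216 bases. The C/EBP letters occurred in the 5 members Ltf, Ngp, Chil3, Lyz1 and Lyz2, with 3 matches each in Ngp and Chil3. Ltf was the 1 member with both kinds, and Camp had neither. Over all 32851 promoters of the same length in the table, 40.7% held TTNNGNAA, 28.3% held GAGGAA and 11.8% held both. The grouping was seen after the search, and a match is a run of letters, not a measured binding site. The windows of Lyz1 and Lyz2, which lie side by side on chromosome 10, shared 249 of 302 aligned columns (82.5%). The proteins of these copies are nearly alike as well, so that a Lyz2 feature may also take up Lyz1 RNA, which was not tested.

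The question put to the arrays was which of these genes differed between treated and control livers. The deposited values were taken as log2 ratios of treated over control, so that 1 stands for a 2-fold higher signal in the treated pool. On the oligonucleotide array 8 of the 9 measured members were higher and 0 lower by limma at an adjusted p under 0.05, and the same 8 lay above 0 in all 3 pools. Over all 16871 genes tested, 22% were called higher, 21.4% lower and 43.4% either way, and 35.1% lay above 0 in all 3 pools. Since the set was chosen with earlier results known, the contrast with these shares is a description only. The median log2 ratio of the members was 0.35, against 0.00 over all genes. Most of the rises were small: 2 members, Lyz2 and Camp, reached 1.5-fold, as did 2.23% of all genes. When the test asked for more than 1.5-fold (limma treat), Lyz2 alone was called among the members (adjusted p = 0.00154), against 0.646% of all genes called higher. Without pool 1, 5 members were called higher, as were 1996 of all 16871 genes. Without the variance prior shared across genes limma called 0 members, and 24 genes higher and 16 lower over the whole array. The smallest limma adjusted p of a member was then 0.0751, and 6 members had an unadjusted p under 0.05. In bulk tissue a change in the number of cells of a type and a change in RNA per cell cannot be told apart.

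**Figure D1:**
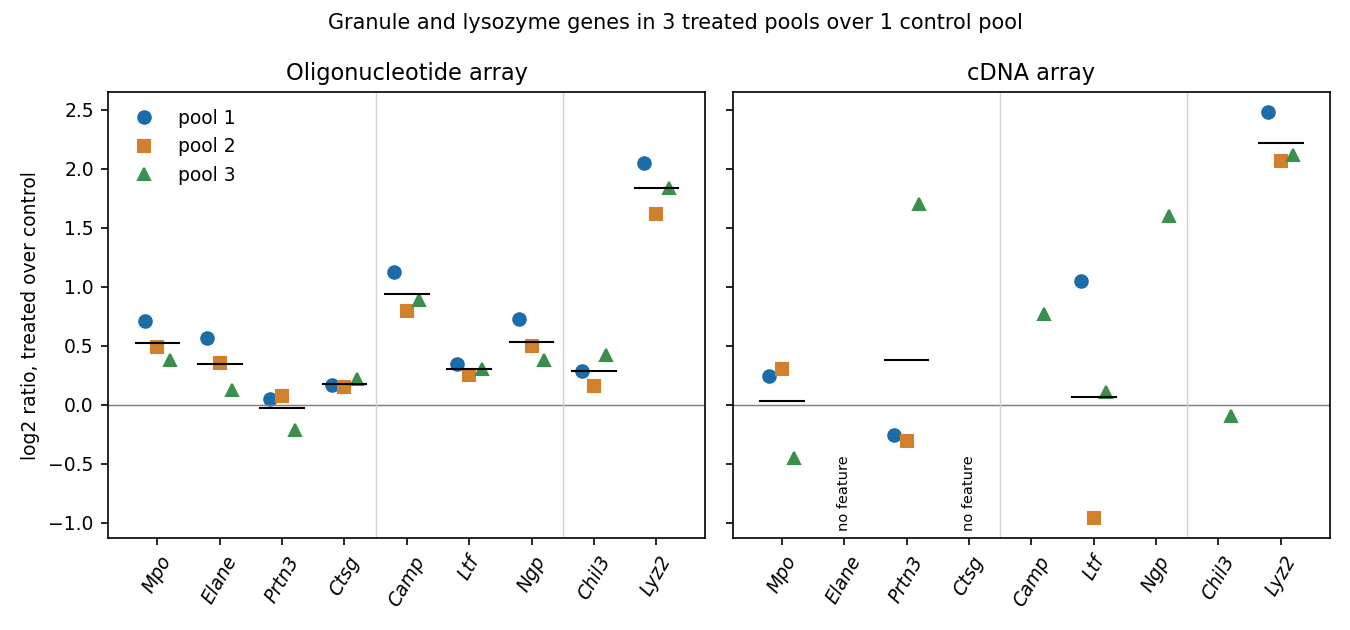
Log2 ratio of treated over control for each measured member, by pool, on the oligonucleotide array (left) and the cDNA array (right). Points are single arrays, black lines the mean where all 3 arrays gave a value, and vertical lines separate primary granule, secondary granule and other genes. Lyz2 lies above 1.6 on every array, while the cDNA values of Ltf, Mpo and Prtn3 fall on both sides of 0.

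Lyz2 gave the largest ratio of the set. On the oligonucleotide arrays it stood at 2.05, 1.62 and 1.84 in pools 1, 2 and 3, and on the cDNA arrays at 2.48, 2.07 and 2.12. All 6 arrays were thus well above 0. On the oligonucleotide arrays the lowest Lyz2 value exceeded the highest value of any other member, 1.13 for Camp. On the cDNA arrays the highest value of another member was 1.70, for Prtn3 in pool 3. That is below the Lyz2 values there but above the lowest oligonucleotide value of Lyz2. The mean on the oligonucleotide array was 1.84 ± 0.21 (SD, n = 3 pools), a 3.57-fold rise with a limma adjusted p of 2.44e-04, and it ranked 19 from the top among the 16871 genes. On the cDNA array the mean was 2.22 ± 0.22, or 4.67-fold, with an unadjusted p of 2.004e-04 and a limma adjusted p of 0.0984, not past the threshold. That adjusted p was the smallest on the cDNA array and was shared by 187 genes. With the arrays of a pool averaged, Lyz2 was 4.08-fold higher (2.03 ± 0.21, limma adjusted p = 0.0394), against 2.47% of 4702 genes called higher. This last call was lost without pool 1 (adjusted p = 0.356) and without pool 2 (adjusted p = 0.288).

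Camp, which encodes the precursor of the antimicrobial peptide CRAMP, rose the most among the genes of the granule classes. Its oligonucleotide ratios were 1.13, 0.79 and 0.89, all 3 above those of every other primary or secondary granule member in any pool. The mean was 0.94 ± 0.17, a 1.92-fold rise (limma adjusted p = 6.26e-04). On the cDNA array Camp was listed at 0, read as not measured, in pools 1 and 2, and had a centred ratio of 0.77 in pool 3, which allowed no test.

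Ngp, a cystatin-like protein of secondary granules, gave 0.72, 0.50 and 0.38. Its mean of 0.53 ± 0.17 was a 1.45-fold rise (limma adjusted p = 0.00285). Its single cDNA value, in pool 3, was 1.60. That is far above the oligonucleotide value of the same pool, and with 1 array it has no replicate check.

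Ltf encodes lactoferrin, the iron-binding protein of secondary granules. Its oligonucleotide values lay close together, at 0.35, 0.26 and 0.30, with a mean of 0.30 ± 0.05 (1.23-fold, limma adjusted p = 0.00346). On the cDNA array the same pools read 1.05, -0.96 and 0.11, so that they spread over both signs around a mean of 0.07 ± 1.01 (limma adjusted p = 0.920). The 95% interval of that mean ran from -1.20 to 1.34 and covered the oligonucleotide value. All 3 secondary granule members were called on the oligonucleotide array, also with any 1 pool left out.

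Among the primary granule members Mpo, the myeloperoxidase that makes hypochlorous acid, rose the most. It read 0.71, 0.49 and 0.38 on the oligonucleotide array, with a mean of 0.53 ± 0.17 (1.44-fold, limma adjusted p = 0.00279). Its profile over the pools was close to that of Ngp, the largest gap between both being 0.015. On the cDNA array Mpo read 0.24, 0.30 and -0.45, with a mean of 0.03 ± 0.42 (limma adjusted p = 0.924), and pool 3 stood below 0 there.

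Elane, neutrophil elastase, varied more between the pools. The values were 0.56, 0.35 and 0.12, with a mean of 0.35 ± 0.22 (1.27-fold, limma adjusted p = 0.0195). Its call was lost without pool 1 (0.24, adjusted p = 0.0773) and without pool 2 (0.34, adjusted p = 0.0814). Ctsg, cathepsin G, gave low but even values of 0.16, 0.15 and 0.22. Its mean was 0.18 ± 0.04 (1.13-fold, limma adjusted p = 0.0178), and with 1 pool left out the adjusted p lay between 0.0506 and 0.0901, so that the call needed all 3 pools. Neither gene had a feature on the cDNA array.

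Prtn3, proteinase 3, was the 1 measured member not called on the oligonucleotide array. It read 0.05 and 0.08 in pools 1 and 2 and -0.22 in pool 3, around a mean of -0.03 ± 0.16 (limma adjusted p = 0.748, 95% interval -0.19 to 0.13). Its neighbour Elane lay above it in every pool. On the cDNA array pools 1 and 2 read -0.26 and -0.31 and pool 3 read 1.70, so pool 3 was low on one array type and high on the other. The mean there, 0.38 ± 1.15 (limma adjusted p = 0.619), turned to -0.29 without pool 3.

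Chil3, a chitinase-like lectin that binds sugars without cleaving chitin, gave 0.29, 0.16 and 0.42. All 3 values were above 0, and the mean was 0.29 ± 0.13 (1.22-fold, limma adjusted p = 0.0113). Without pool 1 the adjusted p was 0.0543. Its single cDNA value, in pool 3, was -0.10.

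**Figure D2:**
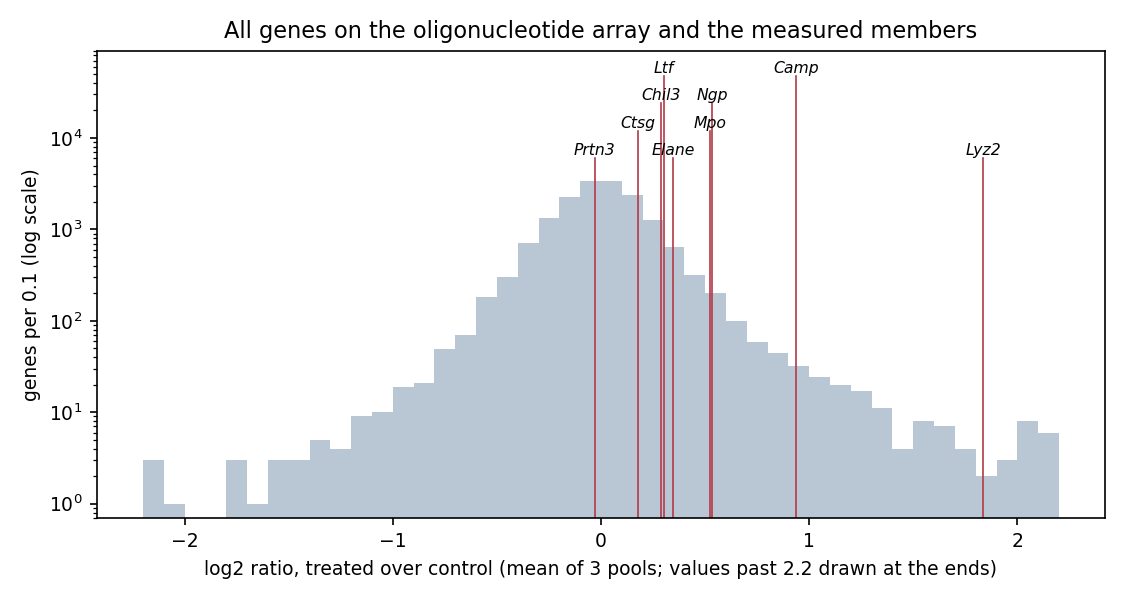
Histogram of the mean log2 ratio (treated over control) of all 16871 genes on the oligonucleotide array, with the number of genes per bin on a log axis and red lines at the 9 measured members. Lyz2 and Camp stand in the upper tail at 1.84 and 0.94, Mpo and Ngp at 0.53, and Prtn3 near the centre at -0.03.

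By their place among the 16871 genes, Lyz2 (99.9th percentile), Camp (99.2nd), Ngp (97.2nd) and Mpo (97.1st) came first. Elane stood at the 93.3rd percentile, Ltf at 91.2, Chil3 at 90.4, Ctsg at 80.7 and Prtn3 at 42.9. The 860 chemosensory receptor genes tested (Olfr, Vmn and Taar families), most of them not known as liver genes, give a rough scale for ratios of genes with little liver transcript. Whether single receptor genes were expressed in these livers was not tested. Of these, 11% were called higher and 24.9% lower, and their median absolute ratio was 0.11. Ratios as high as that of Lyz2 occurred in 2 of the 860, as high as that of Camp in 3, and as high as that of Mpo or of Ngp in 4. For Elane the number was 15, for Ltf 24, for Chil3 28 and for Ctsg 78, or 9.07% of these genes. Every member's ratio was thus reached by some of these receptor genes, that of Ctsg by the largest number among the 8 called.

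In 6 of the 8 members called higher, Mpo, Elane, Camp, Ltf, Ngp and Lyz2, pool 1 was the highest of the oligonucleotide arrays. Of all 3710 genes called higher, 40.7% were highest in pool 1, and the difference was not tested. In Ctsg and Chil3 pool 3 was the highest. The medians of the 9 members were 0.56, 0.35 and 0.38 in pools 1, 2 and 3. The 3 genes outside the set closest to this median profile were C1qtnf12, P2ry13 and Alas2, with root mean square differences of 0.01, 0.01 and 0.02 over the 3 oligonucleotide arrays. Closest to Lyz2 were Blnk (0.14), Capg (0.15) and Tnfaip2 (0.17). On the cDNA array Alas2 went the other way, at -0.99, -0.54 and -0.38, and was not called.

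The remaining neutrophil genes were mixed. The counts for these and the later lists stand beside 22% of all genes called higher and 21.4% lower on this array. With pool 1, 2 or 3 left out, 1996, 2536 and 3180 genes of the whole array were higher, and 2029, 2399 and 3064 lower. Of 13 tested genes of other granule proteins, 5 were higher and 1 lower, with a median of 0.05. Haptoglobin, Hp, which hepatocytes make in bulk and neutrophils store, rose to 0.55 ± 0.18 (adjusted p = 0.00291). The surface protein gene Cd177 (0.20 ± 0.04) and the collagenase gene Mmp8 (0.23 ± 0.09) had the next smallest p, while Chil1, a relative of Chil3, fell (-0.20 ± 0.09, adjusted p = 0.0203). Lcn2, the siderophore-binding lipocalin, read 0.81, -0.09 and 0.15 and was not called. Without pool 1, 2 of these genes were higher and 0 lower, and without pool 2, 3 were higher. Without pool 3, 0 were lower.

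Of 11 tested genes of neutrophil cytosol, receptors and lineage, 5 were higher and 1 lower, with a median of 0.06. The calgranulin genes led. S100a9 read 2.40, 2.03 and 1.56 (3.99-fold, SD 0.42 on the log2 scale, adjusted p = 6.20e-04), and S100a8 read 1.62, 1.33 and 1.04 (1.33 ± 0.29, adjusted p = 7.14e-04). Both exceeded Camp in every pool. Padi4, the enzyme that citrullinates histones in extracellular traps, rose to 0.38 ± 0.11 (adjusted p = 0.00360), and Gfi1, a repressor needed for neutrophil maturation, fell (-0.30 ± 0.12, adjusted p = 0.00896). On the cDNA array Padi4 read -0.14, -0.23 and 2.16, while S100a8, S100a9 and Gfi1 kept their direction in all 3 pools. None of these was called there. Among the receptor genes on the oligonucleotide array, Cxcr2 was higher (0.35 ± 0.22, limma adjusted p = 0.0182). The G-CSF receptor gene Csf3r (-0.03 ± 0.12), Fpr2 (-0.15 ± 0.16) and Trem1 (0.06 ± 0.08) were not called. Stfa2 was higher as well (0.29 ± 0.20, limma adjusted p = 0.0298). Without pool 2, 3 genes of this list were higher. Ly6g, Retnlg, Cebpe, Fpr1 and Stfa1 were not tested here. Of the genes for inhibitors of the granule proteases, 3 of 8 were tested, and Serpinb1a, an inhibitor of elastase, proteinase 3 and cathepsin G, was higher (0.49 ± 0.23, adjusted p = 0.00707). Serpina1d, an antitrypsin gene, read -0.28 ± 0.26 and Serpina3n 0.17 ± 0.16, and neither was called with all pools. The Serpina1d ratio was the same as that of the albumin gene Alb in every pool, to within 8.67e-05, so that it is uncertain as a measurement of this gene. Without pool 1, 1 of these 3 was lower, and without pool 2, 2 were higher.

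**Figure D3:**
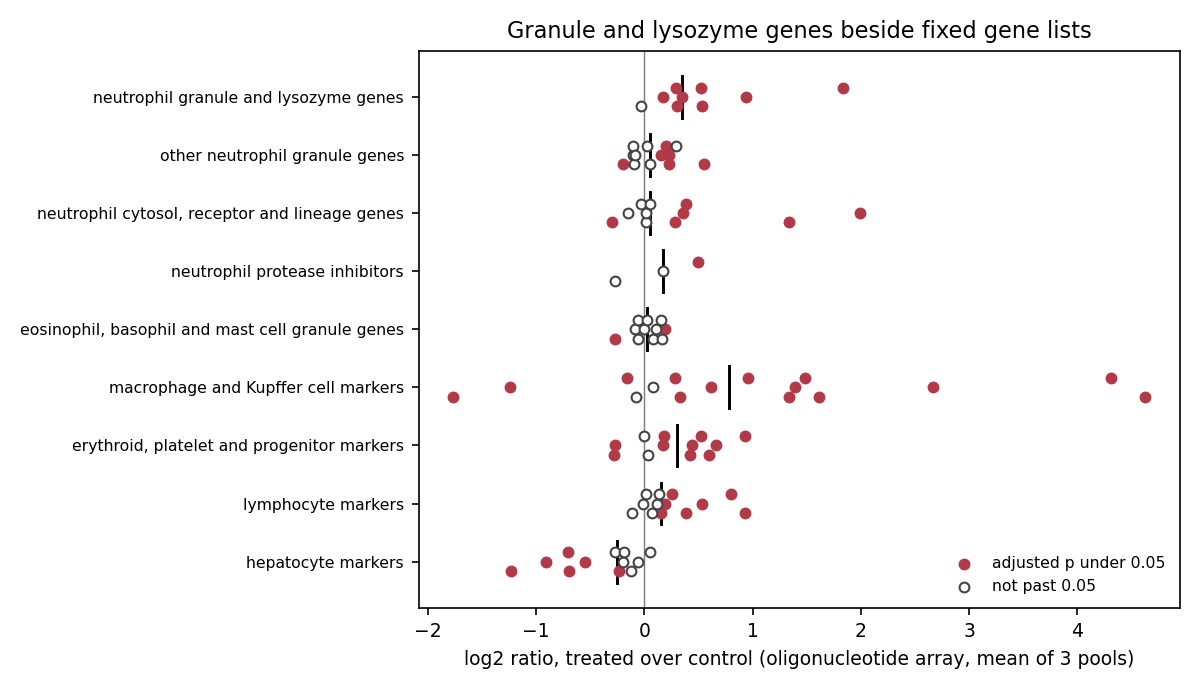
Mean log2 ratio (treated over control) of each tested gene on the oligonucleotide array, for the granule and lysozyme genes and 8 other gene lists. Filled points passed an adjusted p of 0.05, open points did not, and black bars are list medians. The macrophage list has the widest spread and a median of 0.78, and the eosinophil, basophil and mast cell list lies close to 0.

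Markers of other cells that make lysozyme or share the marrow were read on the same arrays, and whether they moved with the granule genes was not tested. Among macrophages and Kupffer cells, 16 markers were tested, of which 11 were higher and 3 lower, against 22% and 21.4% of all genes. The medians of these markers were 0.98, 0.58 and 0.79 in the 3 pools. Gpnmb (4.63 ± 0.07, adjusted p = 1.13e-06), Trem2 (4.31 ± 0.19, adjusted p = 1.57e-05) and Clec7a (2.66 ± 0.17, adjusted p = 4.73e-05) had the smallest p. Cd163 (-1.77 ± 0.13) and Marco (-1.24 ± 0.76), both scavenger receptors of resident macrophages, were lower, as was Vsig4 (-0.17 ± 0.05). The Kupffer cell markers Clec4f (0.33 ± 0.05) and Cd5l (1.48 ± 0.17) were higher, so that markers of resident macrophages went both ways. On the cDNA array Cd163 was below 0 in all 3 pools, while Marco read -0.77, -0.21 and 0.24, and neither was called. Lyz2, a macrophage gene as well, lay within the range of this list, as did every other measured member. That range, from -1.77 to 4.63, is too wide to set any gene apart. The part of macrophages in the Lyz2 and Chil3 ratios was not tested.

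Of 12 tested erythroid, platelet and progenitor markers, 8 were higher and 2 lower, with a median of 0.30, against 22% and 21.4% of all genes called. Ppbp, a platelet chemokine gene, rose to 0.93 ± 0.22, Cd34 to 0.60 ± 0.04 and the erythropoietin receptor gene Epor to 0.52 ± 0.03, the largest adjusted p of the 3 being 9.85e-04. Klf1, the erythroid master regulator (-0.28 ± 0.01), and Kit, the stem cell factor receptor (-0.27 ± 0.03), were lower. Without pool 1, 5 of this list were higher. The 4 markers of this list tested on the cDNA array had a median of 0.01 and none was called, and Epor read 0.51, 0.42 and 3.65 there. Whether blood or marrow-type cells took part in the ratios of the granule genes was not tested.

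Of 11 tested genes of eosinophil, basophil and mast cell granules, 1 was higher and 1 lower, at a median of 0.03. Over all genes 22% were higher and 21.4% lower. Mcpt8, a basophil protease gene next to Ctsg on chromosome 14, rose (0.19 ± 0.06, adjusted p = 0.0185), and Mcpt2 fell (-0.28 ± 0.04, adjusted p = 0.00436). Prg2 read 0.15 ± 0.11 and was not called. Mcpt2 did not fall on the cDNA array, where it read 0.64, 0.56 and 0 and was not called. Of 13 lymphocyte markers on the oligonucleotide array, 7 were higher and 0 lower. Without pool 2, 4 of them were higher, as were 2536 of 16886 genes. The smallest p were those of Jchain (0.93 ± 0.06), Il7r (0.80 ± 0.20) and Ms4a1 (0.38 ± 0.02). The 8 lymphocyte markers tested on the cDNA array had a median of -0.10, and Ms4a1 read -0.29, -1.17 and -0.46, not called. Of 12 hepatocyte markers, 0 were higher and 6 lower, with Arg1 at -0.70 ± 0.03, Ass1 at -0.70 ± 0.05 and Tdo2 at -0.91 ± 0.13. The files hold ratios and no levels, so that the tissue could not be checked by its markers' abundance.

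Whether both array types gave the same ratio could be asked for 4 members. Oligonucleotide minus cDNA was -0.39 for Lyz2 (limma adjusted p = 0.177), 0.50 for Mpo (0.192), 0.24 for Ltf (0.751) and -0.41 for Prtn3 (0.625). None of the 4 passed, against 11.4% of 4702 genes, of which 0 passed with the pool as a block. The cDNA array called 0 of 5011 genes (0% in either direction), with 1518 at an unadjusted p under 0.05, among them 1 of the 4 members, Lyz2. Lyz2 was also the 1 member above 0 in all 3 cDNA pools, as were 31.1% of the genes. Over all genes tested, the median SD over the pools was 0.32 on the cDNA array, against 0.08 on the oligonucleotide array. With the arrays of a pool averaged, Mpo lay at 0.28 ± 0.27, Ltf at 0.18 ± 0.53 and Prtn3 at 0.17 ± 0.49, and none of the 3 was called (the smallest limma adjusted p among them was 0.209).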

How the data were processed

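The 6 deposited columns, 1 per array, hold the authors' values, read here as log2 ratios of Cy5 over Cy3. For the base, centring, direction, background correction and normalization the sources used here give nothing. Base 2 was read from the largest absolute value (6.34, against 4.82 for the log10 of a 16-bit signal); a natural log would make every fold larger. Direction was taken from titles and dyes. No array had the dyes exchanged, and the 1 control pool leaves out the spread between control animals. No intensities were given, so signal over background is unknown, and precision is limited by the number of arrays.

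Exact zeros were treated as not measured (1257 to 1277 features per oligonucleotide array, 3421 to 5332 per cDNA array), and each array was centred on its non-zero median (0.01 for each oligonucleotide array, -0.07, -0.09 and -0.02 for the cDNA arrays). Features naming 1 gene in a 2007 platform annotation were used (18658 of 22575 and 7410 of 13482); 18445 and 7332 gene IDs were found in the RefSeq table of GRCm38.p6. Features with values on all 3 arrays were averaged per gene and tested against 0 with limma 3.58.1 (R 4.3.3, lmFit, eBayes). Adjustment was by Benjamini-Hochberg over all genes, with a threshold of 0.05. The fit was also run on simulated data with independent noise. Those data held no error of a shared control pool or of the dyes, so they cannot check the calls for such errors. P-values rest on the spread between arrays, or between pool averages, in which pool and array differences are mixed. An error of the shared control pool or of the dyes would lie in the mean and not in that spread. Pool numbers pair the arrays because each RNA sample was split over both types, per the series' design text; deviations of a pool's arrays from their type's mean correlated at 0.06, 0.07 and 0.07 across 4702 genes. Tables and plots used Python 3.11.15, pandas 2.3.3 and matplotlib 3.10.9.

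Members and lists were chosen with earlier results of these data known. Named were all members, the 3 genes with the smallest p in each other list, up to 2 called against the list's majority, and the closest profiles. Lcn2, Csf3r, Cxcr2, Fpr2, Trem1 and Stfa2 were added after their values were seen. Alternatives changed the centring, the zeros, the prior, the fold tested, the features and the pools.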

Additional observations from a re-analysis of the deposited data

How the results depend on the processing

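On the oligonucleotide array the 8 member calls stood at 8 without centring, with zeros kept, with single features and with values on 2 of 3 arrays. They fell to between 5 and 7 with 1 pool left out, to 1 (Lyz2) with limma treat against 1.5-fold and to 0 without the shared prior. All genes called numbered 3710 higher and 3608 lower, between 1996 and 3180 higher and between 2029 and 3064 lower with 1 pool left out, 109 and 26 with treat, and 24 and 16 without the prior. The averaged comparison called 116 genes higher and 124 lower, with Lyz2 as its 1 member. It called 0 genes and 0 members with zeros kept, without the prior, with treat or with values on 2 of 3 arrays, and between 0 and 235 higher, 0 and 138 lower and 0 and 1 member with 1 pool left out. The cDNA array called 1 gene without the prior. The difference between array types called 294 higher and 243 lower, 180 and 110 with zeros kept, 0 and 0 with the replicate block, and between 0 and 505 and between 0 and 572 with 1 pool left out; the block changed no member's call. The cause of these moves was not tested.

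No called member changed sign. Of the uncalled, the cDNA ratio of Mpo was -0.03 without centring. With 1 pool left out the ranges were -0.11 to 0.27 for Mpo, -0.43 to 0.58 for Ltf and -0.29 to 0.72 for Prtn3 on the cDNA array, -0.083 to 0.064 for Prtn3 on the oligonucleotide array, -0.073 to 0.45 for Ltf and -0.11 to 0.32 for Prtn3 averaged, and -0.25 to 0.70 for Ltf and -0.80 to 0.35 for Prtn3 in the difference between array types. Single features were not run for the averaged comparison, since a feature belongs to 1 array type. Without intensities, nothing can be said of signal over background.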
